A study of Mus musculus with 10 samples.

Results

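The genes described here are mouse zinc finger genes whose symbol is Zfp followed by digits only, with Zfp36 left out. Of 277 such genes with a probe set annotated to 1 gene symbol, 201 were kept because their probe set lay above the median of all non-control probe sets of the array on 2 or more of the 10 arrays. They are 201 of the 11037 genes that passed the same filter among 17097 genes on the array. The genes were thus chosen by their levels on these same 10 arrays: 161 lay above the median on all 10 arrays, and 40 on 2 to 9 of them. Of the 76 left out, 65 lay above the median on 0 arrays and 11 on 1 array. At the limit, the second-highest array of Zfp202, Zfp566 and Zfp870 lay 0.0041, 0.0131 and 0.0308 above its median on the log2 scale, and that of Zfp661, Zfp469 and Zfp282 lay at -0.0091, -0.0293 and -0.0338 from it. Of the 201 genes, 8 passed through the arrays of 1 group alone: Zfp606, Zfp612, Zfp781, Zfp827, Zfp870 and Zfp90 through CD25+ cells, Zfp324 through CD49b+ cells and Zfp78 through CD4+ cells of naive mice. Because such genes had to differ between groups, the counts below describe the 201 genes and are not a test of them.

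The arrays measured RNA of T cells from the spleens of DBA/1 mice, an inbred strain used in arthritis research, in 4 groups. CD4+CD49b+ cells (n = 3), CD4+CD25+ cells (n = 3) and CD4+ cells (n = 2) came from mice that had received 500000 immature dendritic cells by intraperitoneal injection 7, 5 and 3 days before, and the last group was CD4+ cells of naive mice (n = 2), which had no such injection. CD49b is the integrin Itga2 and CD25 the interleukin 2 receptor chain Il2ra, carried by regulatory T cells. Cells of several mice were pooled for sorting, and the labels do not say whether the arrays of a group came from separate pools, so p-values measure the spread between these arrays, which may be technical. The labels do not say that CD4+ cells were freed of CD49b+ or CD25+ cells, and give no age of the mice.

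Most of these proteins carry zinc fingers in which cysteine and histidine residues hold a zinc ion, and rows of such fingers read DNA. Many also carry a KRAB domain, which recruits the corepressor Trim28 and, through it, the histone methyltransferase Setdb1 and the heterochromatin proteins Cbx1, Cbx3 and Cbx5, a route known for silencing retroelements. The genes have multiplied by tandem duplication, so that many lie beside their relatives. Others with the same kind of symbol work in splicing, ribosome assembly, the spindle or lymphocyte development.

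CD25+ cells had the highest levels of Il2ra and of Foxp3, the regulatory T-cell transcription factor. Foxp3 averaged 6.45 in CD49b+ cells, 8.25 in CD25+ cells, 4.64 in CD4+ cells of injected mice and 4.92 in those of naive mice (log2 levels), and Il2ra averaged 6.29, 8.83, 4.17 and 4.17 in the same groups. Itga2 was higher in CD49b+ than in CD25+ cells by 0.31 (adjusted p = 0.0349, limma) but not above CD4+ cells, with means of 5.78 in CD49b+ cells, 5.47 in CD25+ cells, 5.82 in CD4+ cells of injected mice and 5.72 in CD4+ cells of naive mice. The groups also differed in other marker lists. The log2 of the summed level of 9 genes of cycling cells lay between 12.1 and 12.9 in CD49b+ cells and between 10.99 and 12.1 in CD25+ cells, against 8.73 to 9.17 in CD4+ cells of injected mice and 9.49 to 9.94 in CD4+ cells of naive mice. That of 7 natural killer genes was 9.51 to 10.1 in CD49b+ cells, 7.86 to 8.52 in CD25+ cells, 8.43 to 8.45 in CD4+ cells of injected mice and 8.57 to 8.71 in those of naive mice. Above the array median were 9 of the 9 cycling genes in both sorted groups, against 7 and 8 in CD4+ cells of injected and naive mice, and 6 of the 7 natural killer genes in both sorted groups, against 4 in either CD4+ group. Klrb1c of this list lay at 4.58 in CD49b+ cells and 4.57 in CD25+ cells, against 4.53 and 4.54 in CD4+ cells of injected and naive mice, under the median of the array. Against CD4+ cells of injected mice, Ncr1 was higher by 0.65 in CD49b+ cells (adjusted p = 0.0301, limma) and by 0.73 in CD25+ cells (adjusted p = 0.0254, limma). In CD49b+ cells Gzma, Nkg7 and Klrk1 were also called higher, by 3.97, 2.78 and 0.53, and Prf1 lower by -1.10. In CD25+ cells Gzma was called higher by 1.48, and Prf1 and Klrd1 lower by -1.11 and -1.84. Of 7 B-cell genes, 3 lay above the array median in CD49b+ cells and 3 in CD25+ cells, against 1 and 2 in CD4+ cells of injected and naive mice. Ms4a1, Pax5 and Ighm were under it in each group. Cd79b, against CD4+ cells of injected mice, was higher by 0.96 in CD49b+ cells (adjusted p = 0.000373, limma) and by 1.53 in CD25+ cells (adjusted p = 3.85e-05, limma). Cd22 and Blk went the other way in CD49b+ cells, lower by -0.65 and -0.40 (adjusted p = 0.002 and 0.0101, limma). They did not pass the test in CD25+ cells, and Cd79a passed it in neither sorted group. The summed B-cell level was 7.61 to 7.63 in CD49b+ cells and 7.92 to 8.06 in CD25+ cells, against 7.78 to 7.93 and 8.33 to 8.44 in CD4+ cells of injected and naive mice. Of 9 myeloid and dendritic-cell genes, 5 lay above the median in CD49b+ cells and 6 in each other group. Lyz2 was under it in each group, and the summed level was 7.86 to 7.94 in CD49b+ cells and 8.13 to 8.27 in CD25+ cells, against 8.44 to 8.54 and 9.13 to 9.43 in CD4+ cells of injected and naive mice. The summed level of 6 genes of naive and quiescent T cells, all above the median in each group, was 12.4 to 12.5 in CD49b+ cells and 12.5 to 12.8 in CD25+ cells, against 13.3 to 13.4 and 13.1 to 13.2 in CD4+ cells of injected and naive mice. In CD49b+ against CD4+ cells of injected mice, Lef1, Bach2 and Foxp1 of this list were lower by -2.57, -3.09 and -2.07. Cd4 averaged 7.89 in CD49b+ cells, 7.59 in CD25+ cells, 7.55 in CD4+ cells of injected mice and 7.72 in those of naive mice. The 3' minus 5' difference of Gapdh, a sign of RNA quality, was 0.23 to 0.69 in CD49b+ cells and 0.37 to 0.60 in CD25+ cells, against 0.13 to 0.26 and -0.01 to 0.06 in CD4+ cells of injected and naive mice. The same difference of Actb was 0.44 to 0.55 in CD49b+ cells and 0.63 to 0.67 in CD25+ cells, against 0.50 to 0.56 and 0.42 to 0.50 in CD4+ cells of injected and naive mice. These values differ between the groups compared below, and their part in the results was not tested. Fewer cells of a type and less RNA per cell cannot be told apart in such bulk samples.

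In CD49b+ against CD25+ cells, the Zfp genes that differed were mostly lower in CD49b+ cells. At an adjusted p under 0.05 (limma, Benjamini-Hochberg over 11037 genes), 6 of 201 were higher and 41 lower, or 2.99% and 20.4%, against 17.5% and 12.4% of all genes tested. The 41 include all 6 genes that passed the filter through CD25+ cells alone, whose selection favoured this direction. The median difference was -0.05 on the log2 scale for the Zfp genes and 0.03 for all genes. With every array centred on its median the counts were 7 higher and 32 lower, against 20.14% and 11.15% of all genes. Among the 161 genes above the median on all 10 arrays they were 6 and 28, against 18.3% and 12.5% of all genes under that filter. Either way 47 genes were called, against 29.9% of all genes, and at least 2-fold differences were called for 4, against 5.09%. Arrays did not overlap for 13 genes higher and 51 lower, against 24.3% and 17.3% of all genes. Among the 101 Zfp genes whose mean level lay between the quartiles of the 201, 4.95% were higher and 14.9% lower, against 18.6% and 13.3% of all genes in that range, so that the lower share there lay near that of all genes. Same-numbered arrays of these groups deviated together, and with the replicate number as a block the counts were 8 higher and 52 lower. That block called 4024 of all 11037 genes. Of the 47 genes, 12 had another probe set tested, which gave the same call for 5 and not for 7. Leaving out the first CD25+ array gave 4 higher and 23 lower, and leaving out the second CD49b+ array gave 9 and 22. Of all genes, 2496 and 2752 were called in these fits.

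**Figure D1:**
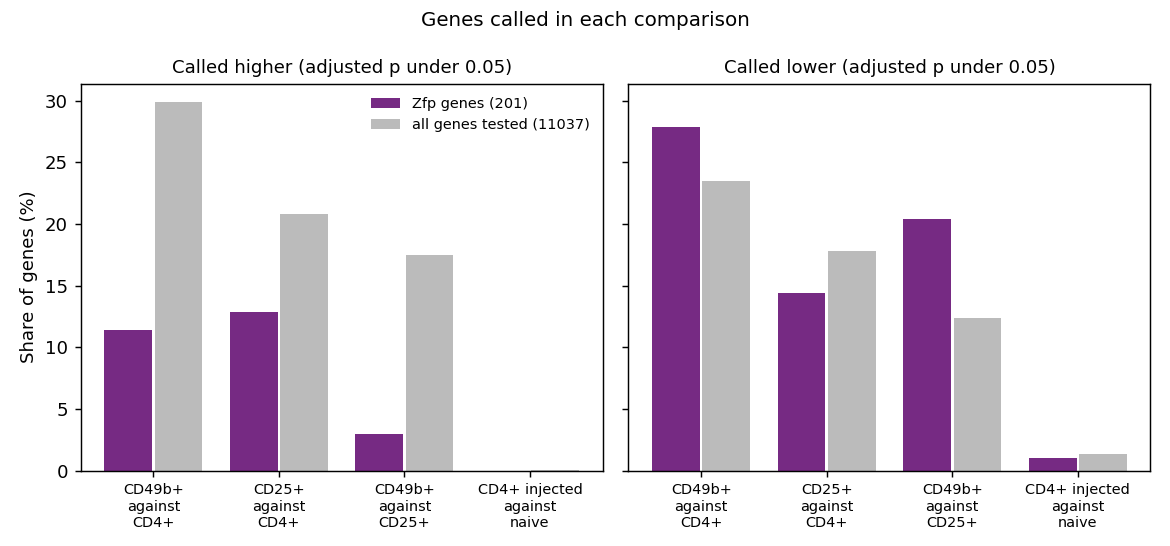
Share of genes (%, vertical axes from 0) called higher (left panel) and lower (right panel) at an adjusted p under 0.05 in each comparison, for the 201 Zfp genes (purple bars) and all 11037 genes tested (grey bars). In CD49b+ against CD25+ cells 2.99% of Zfp genes were higher and 20.4% lower, against 17.5% and 12.4% of all genes.

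Zfp281, a DNA-binding regulator known from embryonic stem cells, had log2 levels of 9.10, 9.13 and 9.09 in CD49b+ cells, against 10.50, 10.11 and 10.00 in CD25+ cells. All CD49b+ arrays lay below all others, since CD4+ cells of injected mice stood at 10.15 and 10.15 and those of naive mice at 9.65 and 9.77. The difference from CD25+ cells was -1.10 ± 0.12 (SE; adjusted p = 9.19e-05, limma), or 2.14-fold lower, and that from CD4+ cells of injected mice was -1.04 ± 0.13 (adjusted p = 0.00014, limma). Another probe set of Zfp281 gave -1.24 (adjusted p = 0.0019, limma) for CD49b+ against CD25+ cells.

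Zfp658 had 4.61, 4.77 and 4.40 in CD49b+ cells, against 5.88, 5.73 and 5.75 in CD25+ cells. Its levels were 6.22 and 5.72 in CD4+ cells of injected mice and 5.94 and 5.92 in those of naive mice, so that CD49b+ cells alone stood low, near the array median. The difference from CD25+ cells was -1.19 ± 0.13 (adjusted p = 0.000142, limma). Zfp267 had 3.91, 3.68 and 3.66 in CD49b+ cells, under the array median, against 4.85, 4.80 and 4.45 in CD25+ cells, a difference of -0.95 ± 0.13. It passed the filter on 3 arrays, 2 of CD25+ cells and 1 of CD4+ cells of injected mice. Without the CD25+ arrays it would not have passed, so its difference is given as a description. Zfp763 had 4.68, 4.32 and 4.90 in CD49b+ cells, against 5.24, 5.19 and 5.19 in CD25+ cells, a difference of -0.57 ± 0.13 (adjusted p = 0.00738, limma). Its CD4+ levels were higher again, at 5.49 and 5.51 after injection. Zfp275 had 7.87, 7.16 and 7.79 in CD49b+ cells, against 8.61, 8.19 and 8.48 in CD25+ cells, with no overlap and a difference of -0.82 ± 0.19 (adjusted p = 0.00861, limma). Zfp945, singled out after its values were seen, had 7.96, 7.25 and 6.41 in CD49b+ cells, against 9.18, 8.49 and 7.88 in CD25+ cells. These overlapped, but the differences between arrays of the same number were -1.22, -1.23 and -1.47.

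For another set of genes it was CD25+ cells that stood apart. Zfp612 had 3.84, 3.99 and 3.64 in CD49b+ cells, against 5.28, 5.14 and 4.98 in CD25+ cells, while the CD4+ cells lay between 3.76 and 4.07. Zfp870 had 3.90, 3.61 and 3.73 in CD49b+ cells, against 4.67, 4.36 and 4.72 in CD25+ cells. Zfp827, whose human counterpart brings the NuRD complex to telomeres, had 4.52, 4.32 and 4.52 in CD49b+ cells, against 5.20, 5.15 and 5.16 in CD25+ cells. These 3 genes passed the filter through CD25+ cells alone and lay below the array median elsewhere, so their differences of -1.31, -0.83 and -0.72 are given as a description.

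Zfp608, known to repress the Rag genes in thymocytes, was also high in CD25+ cells and passed the filter in all groups. It had 4.96, 4.88 and 5.04 in CD49b+ cells, against 5.59, 5.71 and 5.39 in CD25+ cells. CD4+ cells stood at 5.02 and 4.99 after injection and at 4.85 and 4.95 in naive mice, so the CD25+ arrays alone were high. The difference of CD49b+ from CD25+ cells was -0.61 ± 0.09 (adjusted p = 0.000836, limma), and a further probe set of the gene gave -1.29 (adjusted p = 0.000359, limma).

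Zfp28 had 4.32, 4.32 and 4.42 in CD49b+ cells, against 5.39, 5.05 and 4.97 in CD25+ cells. CD4+ cells of injected mice lay between them, at 4.65 and 4.72, and those of naive mice stood at 4.81 and 4.84. Zfp90, whose human counterpart has an isoform that binds FOXP3, had 3.88, 4.13 and 4.14 in CD49b+ cells, under the array median, against 4.86, 4.46 and 4.74 in CD25+ cells. Its levels were 4.35 and 4.47 in CD4+ cells of injected mice and 4.77 and 4.72 in those of naive mice, the latter near the CD25+ levels. Zfp90 passed the filter through CD25+ cells alone, so its values are given as a description. It was named in addition to the genes chosen by the rule given below.

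The 6 genes higher in CD49b+ cells were Zfp971, Zfp652, Zfp524, Zfp511, Zfp944 and Zfp672. Zfp971 had 7.59, 7.79 and 7.65 in CD49b+ cells, against 6.51, 7.02 and 6.84 in CD25+ cells, a difference of 0.89 ± 0.15 (adjusted p = 0.00188, limma). Its levels were 5.88 and 6.35 in CD4+ cells of injected mice and 6.47 and 6.65 in those of naive mice. Zfp652, which in humans binds the corepressor CBFA2T3, had 8.27, 7.85 and 7.80 in CD49b+ cells, against 7.51, 7.52 and 7.36 in CD25+ cells, a difference of 0.51 ± 0.12 (adjusted p = 0.0101, limma). Here the CD25+ arrays were the low ones, since CD4+ cells of injected mice stood at 8.17 and 8.17.

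**Figure D2:**
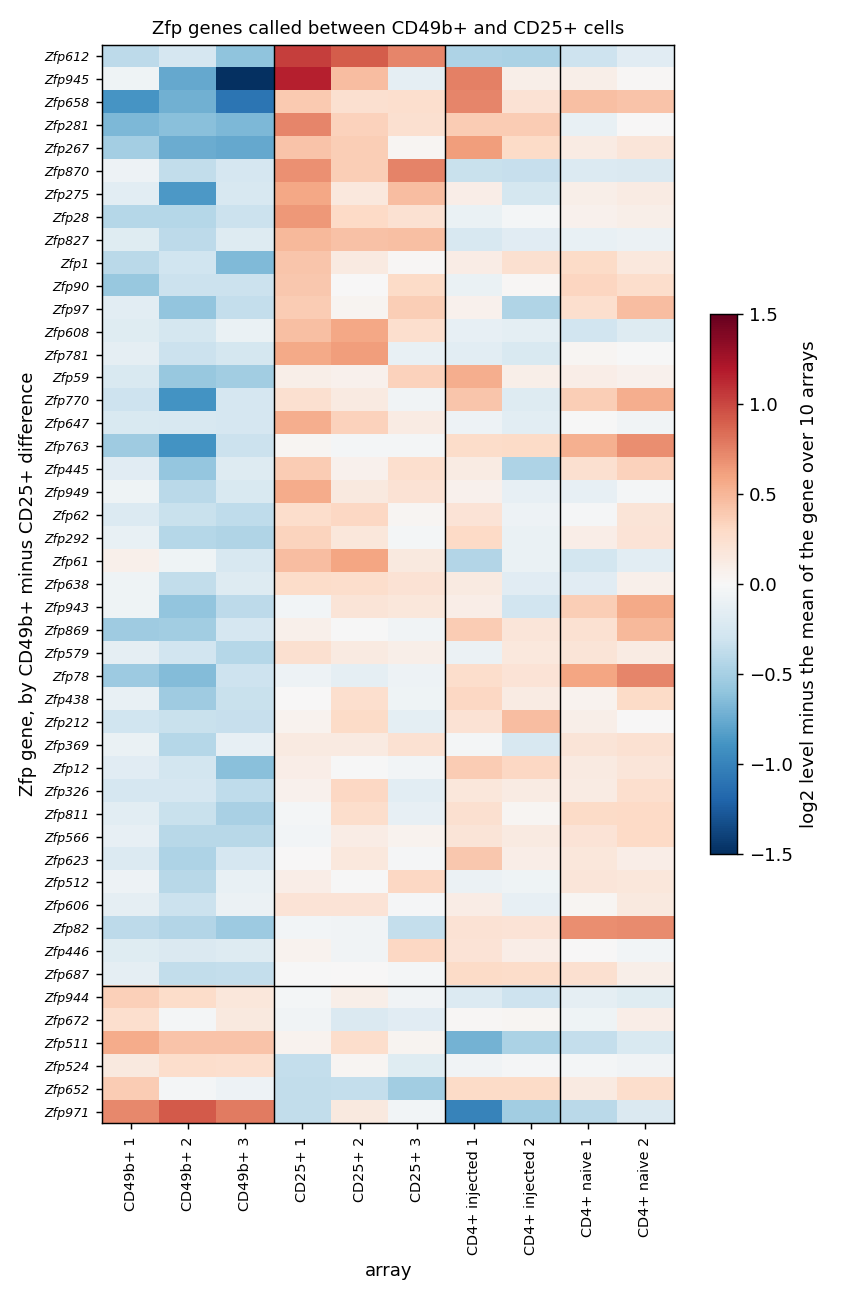
Log2 level minus the gene's mean over 10 arrays (colour, red above and blue below) for the 47 Zfp genes called between CD49b+ and CD25+ cells, in rows by their difference, with the arrays in columns by group. The 41 genes above the horizontal line were lower and the 6 below it higher in CD49b+ cells.

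Promoter sequences are shown for genes with the largest called differences between CD49b+ and CD25+ cells in either direction, so that they can be set beside those levels. They were taken among the genes whose arrays did not overlap and that have an entry in the promoter table, so Zfp945 was left out. Each window lies around the start of the gene, mostly upstream of it, in the RefSeq annotation of GRCm38.p6, which held 167 of the 201 genes. Capitals mark matches to the motifs searched on both strands: CCGGAAG (ETS), AAGATGGC (YY1), ACTACAA (ZNF143), GCGCATGCG (NRF1), GGGCGG (SP and KLF) and TGACGTCA (CREB).
Zfp658 (chr7:43562120-43562419, + strand): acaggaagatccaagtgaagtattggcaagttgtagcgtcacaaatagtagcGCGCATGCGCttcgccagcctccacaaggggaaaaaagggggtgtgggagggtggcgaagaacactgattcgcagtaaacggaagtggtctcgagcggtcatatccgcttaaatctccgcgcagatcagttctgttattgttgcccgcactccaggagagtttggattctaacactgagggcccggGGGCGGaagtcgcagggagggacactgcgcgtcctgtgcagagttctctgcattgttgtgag
Zfp281 (chr1:136624651-136624950, + strand): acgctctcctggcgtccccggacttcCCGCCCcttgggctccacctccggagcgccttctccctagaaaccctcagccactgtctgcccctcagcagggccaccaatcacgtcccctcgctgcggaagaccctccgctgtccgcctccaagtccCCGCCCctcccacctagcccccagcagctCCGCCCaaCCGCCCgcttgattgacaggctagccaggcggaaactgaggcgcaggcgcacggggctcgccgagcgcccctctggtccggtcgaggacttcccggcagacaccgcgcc
Zfp267 (chr3:36150830-36151129, + strand): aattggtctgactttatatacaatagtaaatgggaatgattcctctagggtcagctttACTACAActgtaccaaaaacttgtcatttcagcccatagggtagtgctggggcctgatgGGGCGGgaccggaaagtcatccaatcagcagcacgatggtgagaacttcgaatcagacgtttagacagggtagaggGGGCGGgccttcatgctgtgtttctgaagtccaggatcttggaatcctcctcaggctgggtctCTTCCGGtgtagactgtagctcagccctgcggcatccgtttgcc
Zfp971 (chr2:178023034-178023333, + strand): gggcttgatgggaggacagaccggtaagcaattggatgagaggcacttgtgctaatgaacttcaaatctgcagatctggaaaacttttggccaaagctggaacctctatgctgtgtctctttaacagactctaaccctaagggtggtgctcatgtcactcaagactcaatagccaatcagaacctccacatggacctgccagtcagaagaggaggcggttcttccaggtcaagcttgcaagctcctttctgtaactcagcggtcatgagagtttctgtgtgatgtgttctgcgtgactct
Zfp652 (chr11:95748817-95749116, + strand): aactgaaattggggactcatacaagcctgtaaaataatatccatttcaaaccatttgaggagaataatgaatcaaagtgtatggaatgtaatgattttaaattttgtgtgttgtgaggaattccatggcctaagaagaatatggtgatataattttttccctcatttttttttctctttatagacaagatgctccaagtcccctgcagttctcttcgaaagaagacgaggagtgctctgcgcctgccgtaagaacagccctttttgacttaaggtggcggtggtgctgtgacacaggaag
Zfp511 (chr7:140036141-140036440, + strand): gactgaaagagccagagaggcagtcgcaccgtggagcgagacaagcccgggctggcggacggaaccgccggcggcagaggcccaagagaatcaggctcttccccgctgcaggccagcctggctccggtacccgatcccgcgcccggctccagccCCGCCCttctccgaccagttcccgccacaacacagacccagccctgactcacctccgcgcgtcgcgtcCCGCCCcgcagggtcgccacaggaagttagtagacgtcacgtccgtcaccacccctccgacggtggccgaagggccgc
The NRF1 matches of Zfp658 on its strands overlap, and the 4 matches in Zfp281 are all GGGCGG on the other strand. GGGCGG lay in 57.5% of the Zfp promoters, 66.5% of those of all tested genes and 38.2% of all promoters in the table. GCGCATGCG lay in 7.19%, 4% and 1.95% of them, and CCGGAAG in 23.4%, 20% and 9.93%. The shares in the same order were 7.19%, 5.3% and 3.19% for AAGATGGC, 6.59%, 4.77% and 3.78% for ACTACAA, and 4.19%, 3.59% and 2.03% for TGACGTCA. Of 32 promoters of genes lower in CD49b+ than in CD25+ cells, 21 held GGGCGG (65.6%), against 72 of 130 of genes not called (55.4%). A match is a description of these letters and not of binding.

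In CD49b+ against CD4+ cells of injected mice, 23 of the 201 Zfp genes were higher and 56 lower, or 11.4% and 27.9%, against 29.9% and 23.5% of all genes tested. This split depended on the scaling: with every array centred on its median, which moved the median of all genes by 0.19, the counts were 48 higher and 29 lower, and 62.3% of the calls were higher, against 29.1% as deposited. For all genes that share was 78.3% after centring and 56.0% as deposited. The median of the Zfp genes minus that of all genes was -0.15 under both scalings. Either way 79 genes were called, against 53.4% of all genes, and 10 by at least 2-fold, against 9.66%. Arrays did not overlap for 35 genes higher and 68 lower, against 37.3% and 33% of all genes. Leaving out the first CD4+ array of injected mice gave 19 higher and 33 lower. Of the 79 genes, 22 had another probe set tested, which gave the same call for 9 and not for 13. The same CD4+ arrays serve the comparison of CD25+ cells.

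Among genes lower in CD49b+ cells, Zfp266 had 6.56, 6.22 and 5.96, against 7.50 and 7.50 in CD4+ cells of injected mice, a difference of -1.26 ± 0.24 (adjusted p = 0.00179, limma). Its other probe set gave 0.23 (adjusted p = 0.131, limma). Zfp113 had 4.84, 4.57 and 4.87 in CD49b+ cells, against 5.73 and 5.62 in CD4+ cells of injected mice, and its difference was -0.91 ± 0.11 (adjusted p = 0.000111, limma). Zfp398, whose human counterpart binds the oestrogen receptor, had 6.93, 6.34 and 6.15 in CD49b+ cells, against 7.90 and 7.18 in CD4+ cells. Its difference of -1.06 ± 0.25 (adjusted p = 0.00558, limma) missed the threshold without the first of those CD4+ arrays (adjusted p = 0.0638, limma).

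Among genes higher in CD49b+ cells, Zfp971 led with a difference of 1.56 ± 0.17 (adjusted p = 6.34e-05, limma), or 2.96-fold. Zfp52 had 6.23, 6.11 and 6.32 in CD49b+ cells, against 5.15 and 4.95 in CD4+ cells of injected mice, and a difference of 1.17 ± 0.12 (adjusted p = 3.36e-05, limma). Zfp120 had 6.04, 5.72 and 6.08 in CD49b+ cells, against 4.80 and 4.52 in CD4+ cells, a difference of 1.28 ± 0.16 (adjusted p = 0.000134, limma). Zfp511 had 7.61, 7.49 and 7.49, against 6.35 and 6.59 in the CD4+ cells, a difference of 1.06 ± 0.11 (adjusted p = 3.7e-05, limma). In all of these the arrays of both groups lay apart.

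Zfp367, known for a part in the cell cycle, had 6.37, 5.79 and 6.29 in CD49b+ cells, against 5.23 and 5.13 in CD4+ cells of injected mice, a difference of 0.97 ± 0.17 (adjusted p = 0.00106, limma). Zfp207, a spindle protein that binds Bub3, had 9.64, 9.66 and 10.18 in CD49b+ cells, against 9.19 and 8.88 in CD4+ cells. Its difference of 0.79 ± 0.20 (adjusted p = 0.00798, limma) is uncertain, since the 4 of its other probe sets that passed the filter gave differences between -0.996 and -0.53, and 3 of them were called lower. Zfp54 was called higher at 0.74 ± 0.26 (adjusted p = 0.0384, limma) while another of its probe sets was called lower at -0.52 (adjusted p = 0.00201, limma).

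**Figure D3:**
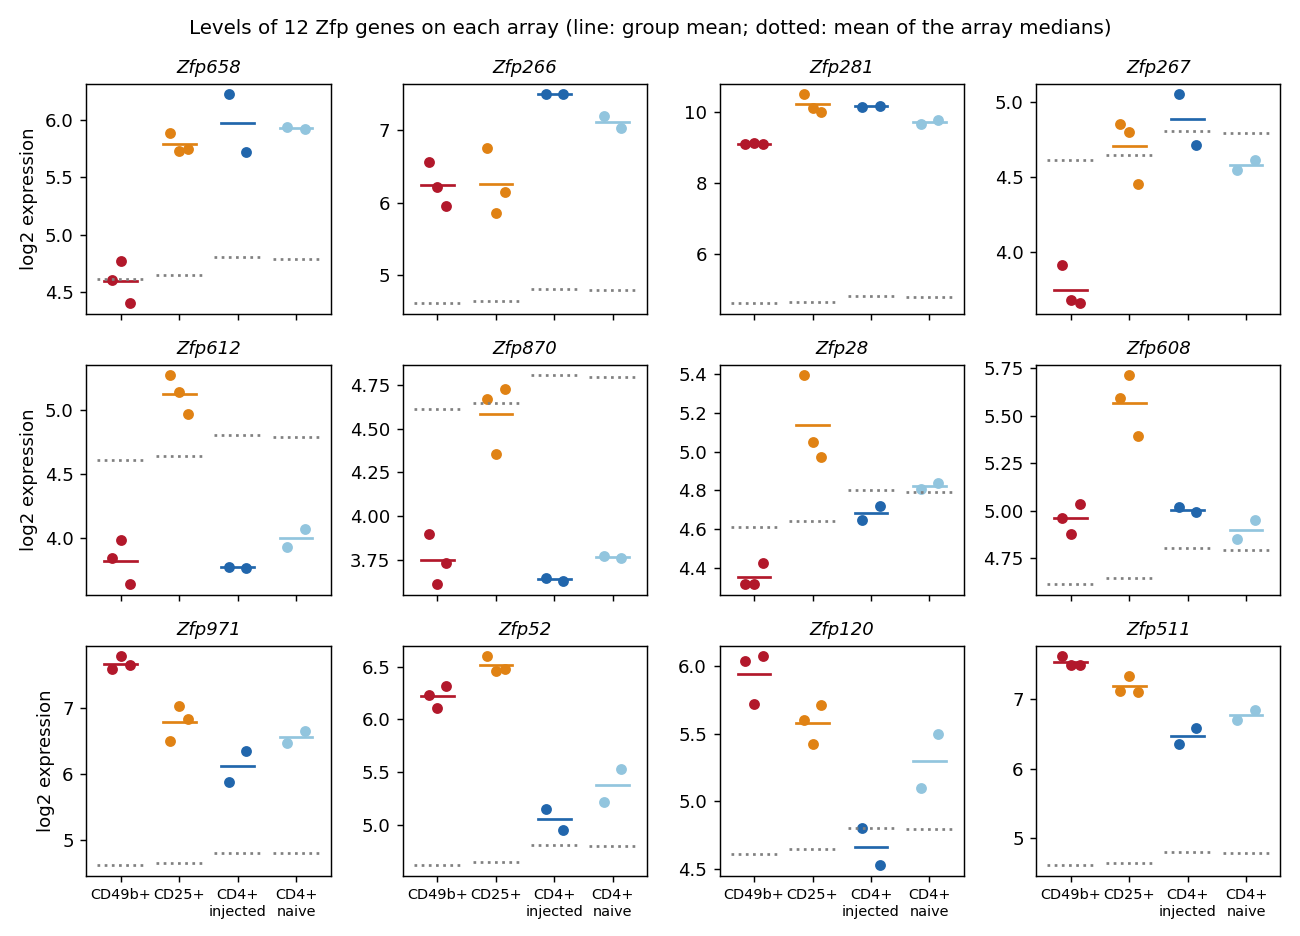
Log2 expression (vertical axes, not from 0) of 12 Zfp genes on each array, with CD49b+, CD25+, CD4+ injected and CD4+ naive cells from left to right; lines are group means and dotted lines the mean of the array medians. Zfp281 and Zfp658 are low in CD49b+ cells alone, and Zfp612 and Zfp608 are high in CD25+ cells alone.

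In CD25+ against CD4+ cells of injected mice, 26 Zfp genes were higher and 29 lower, or 12.9% and 14.4%, against 20.8% and 17.8% of all genes. After centring, which moved the median of all genes by 0.16, the counts were 50 and 11, and 82.0% of the calls were higher, against 47.3% as deposited. For all genes those shares were 78.6% and 53.9%. Either way 55 genes were called, against 38.6% of all genes, and 4 by at least 2-fold, against 6.44%. Arrays did not overlap for 42 genes higher and 50 lower, against 31% and 27.9% of all genes. Leaving out the first CD4+ array gave 23 and 11, and leaving out the second gave 18 and 18. Zfp52 had 6.60, 6.46 and 6.48 in CD25+ cells, and its difference was 1.46 ± 0.12 (adjusted p = 1.43e-05, limma). Zfp113 had 4.70, 4.55 and 4.70, and its difference was -1.02 ± 0.11 (adjusted p = 9.09e-05, limma). Zfp266 had 6.75, 5.86 and 6.15, with a difference of -1.24 ± 0.24 (adjusted p = 0.00282, limma). As given above, the other probe set of Zfp266 did not show the fall of CD49b+ cells from the same CD4+ cells. Zfp74 had 5.75, 5.46 and 5.48 in CD25+ cells, against 4.91 and 4.86 in CD4+ cells of injected mice, a difference of 0.67 ± 0.11 (adjusted p = 0.000882, limma). Zfp979 had 7.56, 7.34 and 7.57, against 6.99 and 6.39 in the CD4+ cells, and its difference of 0.80 ± 0.19 (adjusted p = 0.00823, limma) missed the threshold without the second of those CD4+ arrays. Zfp652 was lower by -0.71 ± 0.13 (adjusted p = 0.00266, limma), and Zfp830, a splicing protein, by -0.40 ± 0.08 (adjusted p = 0.00458, limma). Zfp956 and Zfp580 stood low in both sorted groups: Zfp956 had 6.69, 6.51 and 6.37 in CD49b+ cells and 6.57, 6.53 and 6.48 in CD25+ cells, against 7.01 and 7.10 in CD4+ cells of injected mice. Zfp64 was called higher in CD25+ cells at 0.48 ± 0.09 (adjusted p = 0.00279, limma) and Zfp787 lower at -0.24 ± 0.08 (adjusted p = 0.0309, limma), each with another probe set called the opposite way.

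By known role, 3 Zfp genes with a part in lymphocytes were tested. Zfp318, needed for the choice between IgM and IgD in B cells, had 7.24, 6.57 and 6.84 in CD49b+ cells and 7.04, 7.19 and 6.95 in CD25+ cells, against 7.60 and 7.45 in CD4+ cells of injected mice. Its differences from the CD4+ cells were -0.64 ± 0.17 in CD49b+ cells (adjusted p = 0.00893, limma) and -0.46 ± 0.17 in CD25+ cells (adjusted p = 0.049, limma). The difference in CD49b+ cells missed the threshold without the first CD4+ array (adjusted p = 0.0662, limma). That in CD25+ cells missed it whichever of the 5 arrays compared was left out (adjusted p between 0.0513 and 0.218, limma), and after median centring (adjusted p = 0.162, limma). Zfp335, required in T-cell development, had 7.59, 7.28 and 7.25 in CD49b+ cells, against 6.88 and 7.24 in CD4+ cells, and passed the test in none of the 4 comparisons. Zfp608 is given above.

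Of 16 chromatin and transcription genes on the list, 6 were lower in CD49b+ than in CD4+ cells of injected mice and 10 did not pass the test, where 29.9% of all genes were higher and 23.5% lower. As for all 201 genes, such splits against CD4+ cells were taken on the scale as deposited. The lower ones included Zfp687 at -0.57 ± 0.09 (adjusted p = 0.000771, limma) and Zfp592 at -0.57 ± 0.16 (adjusted p = 0.0145, limma), partners in a complex with Zmynd8. Of 11 genes of RNA and ribosome work, 1 was higher and 4 lower beside the same shares of all genes. The higher one was Zfp207, whose call is uncertain, as given above. The lower ones included the nucleolar Zfp330 at -0.51 ± 0.12 (adjusted p = 0.00576, limma). Zfp445, which maintains imprints, had 9.56, 9.15 and 9.53 in CD49b+ cells, against 10.11, 9.79 and 9.98 in CD25+ cells, a difference of -0.55 ± 0.16 (adjusted p = 0.0289, limma). Zfp638, known for silencing retroviral DNA, was lower by -0.46 ± 0.11 in the same comparison (adjusted p = 0.0105, limma).

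Of 16 corepressor genes that work with KRAB proteins, 6 were higher and 1 lower in CD49b+ cells and 5 higher in CD25+ cells, each against CD4+ cells of injected mice. Of all genes, 29.9% were higher and 23.5% lower in CD49b+ cells, and 20.8% higher and 17.8% lower in CD25+ cells. The counts of listed genes called higher lay near these shares. Those called lower, 1 in CD49b+ cells and 0 in CD25+ cells, lay under them. In CD49b+ against CD25+ cells, 3 of the 16 were lower and 0 higher, against 12.4% and 17.5% of all genes. Resf1, a partner of Setdb1, had 9.36, 9.25 and 9.26 in CD49b+ cells, against 10.23, 10.12 and 10.14 in CD25+ cells, a difference of -0.87 ± 0.08 (adjusted p = 4.17e-05, limma). Trim28 had 9.31, 9.19 and 9.37 in CD49b+ cells, against 9.61, 9.74 and 9.81 in CD25+ cells, a difference of -0.43 ± 0.08 (adjusted p = 0.00287, limma). Uhrf1, which keeps DNA methylation through replication, had 8.57, 8.61 and 8.92 in CD49b+ cells, against 5.24 and 5.52 in CD4+ cells of injected mice, a difference of 3.31 ± 0.21 (adjusted p = 1.96e-06, limma), beside the higher cycling-cell levels given above. Cbx5 was higher by 0.78 ± 0.19 in the same comparison (adjusted p = 0.00596, limma), but by 0.16 with the mean of its probe sets (adjusted p = 0.259, limma).

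Of the 201 genes, 66 of 200 placed in the gene table (GRCm38.p6) lay next to another, in 25 runs, and neighbours did not always move one way. In the run of Zfp27, Zfp383, Zfp74, Zfp568, Zfp14, Zfp82 and Zfp566 on chromosome 7, 4 genes were lower in CD49b+ than in CD4+ cells of injected mice, while Zfp74 was higher by 0.62 ± 0.11 (adjusted p = 0.000911, limma). Of the 201 genes 11.4% were higher and 27.9% lower in this comparison, and of all genes 29.9% and 23.5%. Some runs, such as that of Zfp180, Zfp112 and Zfp235, held no gene called in it. In the run on chromosome 17 that holds Zfp52, its neighbour Zfp948 was lower by -0.41 ± 0.11 (adjusted p = 0.0112, limma). Probe sets of close relatives may share sequence, and 15 of the 201 genes were measured by one whose suffix marks that.

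In CD4+ cells of injected against naive mice, 0 Zfp genes were higher and 2 lower (limma), or 0% and 0.995%, against 0.0272% and 1.36% of all genes. At an unadjusted p under 0.05, 5 were higher and 26 lower, or 2.49% and 12.9%, against 2.45% and 9.92% of all genes. Beside this, in CD4+ cells of injected mice the myeloid markers Itgax, Cybb and Adgre1 were lower by -1.12, -1.27 and -0.85 and the B-cell marker Cd22 by -1.02 (adjusted p between 0.00228 and 0.029, limma), and their part in the Zfp values was not tested. The 2 Zfp genes called compare with 1.39% of all genes called either way, and neither reached 2-fold, against 0.616% of all genes. Arrays did not overlap for 29 genes higher and 71 lower, against 18.6% and 30% of all genes. Zfp783 had 4.99 and 5.07 in CD4+ cells of injected mice, against 5.66 and 5.67 in those of naive mice, a difference of -0.63 ± 0.12 (adjusted p = 0.0413, limma). Zfp688 had 6.78 and 6.77, against 7.26 and 7.34 in naive mice, a difference of -0.53 ± 0.10 (adjusted p = 0.0314, limma). Neither passed without any 1 of these 4 arrays. The next in order, Zfp82, Zfp78 and Zfp120, had differences of -0.49, -0.42 and -0.64 and did not pass.

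Seen by array, the median deviation of the 201 genes from their 10-array means was -0.0045, -0.2031 and -0.0896 in CD49b+ cells and 0.0096, 0.0044 and -0.0022 in CD25+ cells. It was 0.0941 and -0.0545 in CD4+ cells of injected mice and 0.0886 and 0.1089 in those of naive mice. The second CD49b+ array was the lowest, and the CD4+ arrays of injected mice lay on both sides of 0.

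**Figure D4:**
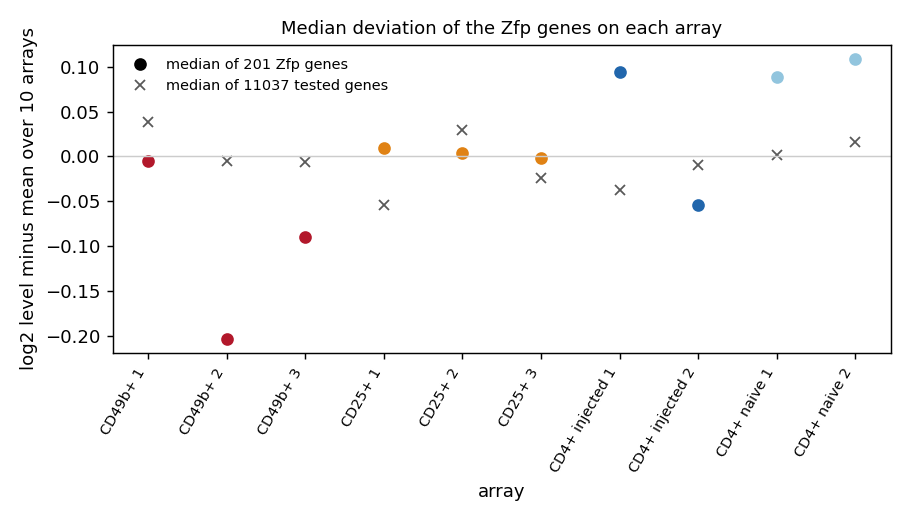
Median over genes of the log2 level minus the gene's 10-array mean (vertical axis) on each array (horizontal axis, by group), for the 201 Zfp genes (dots) and all 11037 tested genes (crosses). The Zfp genes lay lowest on the second CD49b+ array, at -0.2031.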

How the data were processed

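RNA of 10 sorted T-cell samples, 100 ng each, was hybridised to Affymetrix mouse arrays, per the labels' protocols. The deposited log2 values cover 45141 probe sets. For the authors' processing, the submitters' processing notes name GCRMA and, as software, Affymetrix Expression Console 1.2.1. The sources used here do not say whether all arrays were normalized jointly. The number of arrays limits the precision.

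After 104 control probe sets were set aside, each gene was represented by its probe set with the highest mean, among the 28898 with 1 symbol in the platform annotation. Genes above the array's 50th percentile on at least 2 arrays (11037) entered 1 limma fit of 4 group means (limma 3.58.1, R 4.3.3, 6 residual degrees of freedom), with Benjamini-Hochberg adjustment and calls under 0.05. The fit was tested on simulated data. Zfp683, Zfp831, Zfp143, Zfp609 and Zfp91 were not analysed here. The genes named were, for each comparison, up to 8 of the called genes with the greatest rise and 8 with the greatest fall whose arrays did not overlap, up to 4 called genes of each list, the lymphocyte genes, the 5 lowest p-values between CD4+ groups, the 5 brightest and 5 least variable genes, and those at the limits of the filter. Genes with another probe set called the opposite way were also named, as were Zfp90 and genes of runs of neighbours. The members and lists were chosen with earlier results of these data known. Whether replicate numbers pair arrays was taken from the data, since the labels do not say. The deviations of same-numbered CD49b+ and CD25+ arrays from their group means correlated in all 3 pairs (0.1578 to 0.6414). Other-numbered pairs of these groups lay between -0.4997 and 0.1347. The same-numbered arrays were counted as paired on this basis. The deviations of 3 arrays of a group sum to 0, so these correlations are not independent and do not establish pairing. The p-values given for single genes come from the fit without a block. The pairs with CD4+ arrays, 2 for each group, were not counted as paired. Those of injected mice correlated at 0.2445 and 0.5309 with CD25+ cells and at 0.0885 and 0.5224 with CD49b+ cells. Those of naive mice with the sorted cells lay between -0.2049 and 0.0773. The deviations of 2 arrays of a group mirror each other, so such pairs are too few to decide this. Alternatives covered scaling, filters, the choice of probe set, the replicate block and leaving out arrays.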

Additional observations from a re-analysis of the deposited data

Results flagged for a closer look

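Zfp28 moved in opposite directions in the sorted cells. Against CD4+ cells of injected mice it was lower by -0.33 ± 0.12 in CD49b+ cells (adjusted p = 0.0383, limma) and higher by 0.45 ± 0.12 in CD25+ cells (adjusted p = 0.0134, limma). The difference between them, CD49b+ minus CD25+ cells, was itself tested and was -0.79 ± 0.11 (adjusted p = 0.000432, limma). Another probe set of the gene gave -0.35 (adjusted p = 0.0918, limma), 0.48 (adjusted p = 0.0392, limma) and -0.83 (adjusted p = 0.00311, limma) in the same order. Of the 3 calls, that between the sorted groups was kept whichever array was left out and after median centring. The call in CD25+ against CD4+ cells was not kept in every fit that left out an array. That in CD49b+ against CD4+ cells was not kept under all of these settings. The CD49b+ arrays and the CD4+ arrays of injected mice all lay under the array median.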

How the results depend on the processing

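The totals of Zfp genes called were 79 for CD49b+ cells and 55 for CD25+ cells, each against CD4+ cells of injected mice, 47 in CD49b+ against CD25+ cells and 2 in CD4+ cells of injected against naive mice. Of all 11037 genes tested, 5892, 4261, 3297 and 153 were called in the same order. With a filter at the 70th percentile the Zfp totals were 43, 25, 28 and 1 of 125, beside 4020, 2500, 2831 and 137 of 7530 genes. With a 2-fold minimum they were 10, 4, 4 and 0, beside 9.66%, 6.44%, 5.09% and 0.616% of all genes. Leaving out 1 array gave 52 to 74, 34 to 48, 27 to 46 and 0 to 0. Without a filter 88 of 277 Zfp genes were called in CD25+ against CD4+ cells, beside 7583 of 17097 genes. In CD4+ cells of injected against naive mice, every probe set gave 0, only the 2 groups compared gave 0, and the replicate block gave 4. Of all 11037 genes these settings called 82, 0 and 377. For the comparisons with CD4+ cells of injected mice the replicate block gave 88 for CD49b+ and 70 for CD25+ cells, beside 6192 and 4723 of all genes. Same-numbered arrays there were not counted as paired, although they correlated at 0.0885 to 0.5309. With the replicate block, CD49b+ against CD25+ cells had 60 calls, which held all 47, and 70 when only those groups were fitted, a setting added after seeing the data, which held 46. All genes had 4024 and 3956 calls under these settings. Same-numbered arrays of injected and naive mice correlated at -0.2093, and crossing their numbers, also added after seeing the data, gave 15 calls. Crossing called 526 of all genes. Zfp207 in CD49b+ against CD4+ cells reversed to -0.51 with the mean of its probe sets. Of the calls, 38 of 79, 20 of 55, 23 of 47 and 0 of 2 were kept whichever array was left out. Among genes of like level, a comparison chosen after seeing the data, 5 Zfp genes were higher and 15 lower in CD49b+ than CD25+ cells, of 101 (4.95% and 14.9%), against 18.6% and 13.3% of all such genes. The cause of these changes was not tested.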

Other observations

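The Zfp genes that varied least over the 10 arrays were Zfp3, Zfp668, Zfp746, Zfp429 and Zfp316, whose log2 levels spanned 0.26 to 0.29 from the lowest array to the highest. Zfp746 had 7.28, 7.21 and 7.39 in CD49b+ cells, against 7.41 and 7.26 in CD4+ cells of injected mice. The brightest probe sets were those of Zfp622, Zfp706, Zfp281, Zfp445 and Zfp207, although brightness depends on the probes and ranks no transcript. Zfp622, known for ribosome assembly, had 11.11, 11.43 and 10.85 in CD49b+ cells and 11.25, 11.76 and 11.02 in CD25+ cells, against 11.26 and 11.50 in CD4+ cells of injected mice and 10.90 and 10.79 in those of naive mice, and it passed the test in none of the 4 comparisons.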
